A study of Mus musculus with 3 samples.

Results

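The genes described here encode collagens, the triple-helical proteins of the extracellular matrix, and laminins, the cross-shaped heterotrimers of basement membranes. They were taken from a gene table of mouse hippocampus as the protein-coding genes whose symbol begins with Col, a number, a and a number, or with Lam, the letter a, b or c and a number. That rule found 56 of 54532 genes. Col4a3bp was set aside because it encodes a ceramide transfer protein and no collagen (its FPKM lay between 8.69 and 10.1). The remaining 55 genes were 44 collagen genes and 11 laminin genes.

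Hippocampi came from 10-month-old C57BL/6 mice of 3 genotypes, with 1 library for each. They were wild type (WT), PS19, which carries a human tau transgene under the mouse Prnp promoter, and PS19 Zbp1+/-, which carries the same transgene and lacks a Zbp1 allele. Zbp1 encodes a sensor of left-handed nucleic acids, and the design sets PS19 beside WT and then asks what differs when Zbp1 dosage is lowered. The number of animals behind a library, their sex and their litter are not given in the sources used here.

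Fibrillar collagens form the stiff bundles of connective tissue, and fibril-associated collagens decorate them. Collagen IV and the laminins build the 2 networks of every basement membrane, which nidogen and perlecan hold together. In the brain these membranes lie under vascular endothelium, around pericytes, beneath the pia and under the epithelium of the choroid plexus, whereas fibrillar collagens are made mainly by fibroblasts of the meninges, vessels and choroid plexus stroma. Some transmembrane and fibril-associated collagens are made by neurons.

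Levels are given as FPKM, the fragments on a gene divided by its length and by the size of the library, and the whole reads behind them were recovered. Where 3 values follow each other they belong to WT, PS19 and PS19 Zbp1+/-, always in that order. The recovered reads summed to 16746085, 16400328 and 17109734. The library sizes implied by the deposited FPKM were 17253479, 17287957 and 15826984, and read ratios are per these sizes. In PS19 Zbp1+/- that size lay below the sum of recovered reads. Its ratios to the other libraries are therefore higher than they would be per recovered read. Differences are given on the log2(FPKM + 1) scale, which understates the difference of weakly expressed genes, and as read ratios per library size with exact (Clopper-Pearson) 95% intervals. With 1 library a genotype there was no replicate check and no test. The intervals cover counting error alone, because PCR copies cannot be told from separate molecules here.

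Several facts of the libraries touch the results. Zbp1 had 5, 91 and 0 reads, which puts PS19 Zbp1+/- at least 27.8-fold below PS19. That gap is wider than the 2-fold that 1 lost allele would give at equal output per allele, and the library is named by its label throughout. Xist had 11062, 13350 and 0 reads and the Y-linked Ddx3y 0, 0 and 711. That is the pattern of females in WT and PS19 and of males in PS19 Zbp1+/-. The PS19 Zbp1+/- library thus differs from both others in sex, by these reads, as well as in genotype. Neuron markers, among them Slc17a7 and Prox1 of hippocampal excitatory neurons, summed to an FPKM of 764.6, 662.4 and 957.0. Ttr, the transthyretin gene of choroid plexus epithelium, had 63846, 38820 and 136 reads. In bulk tissue, fewer cells of a type and less RNA per cell cannot be told apart.

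Between PS19 and WT no collagen or laminin gene differed by 1 log2 unit. Of the 6 tested laminin genes, 5 had a positive difference, against 46.3% of all genes. Set against PS19, the PS19 Zbp1+/- library was lower by at least 1 log2 unit in Col9a3, Col8a2, Col8a1, Col1a2, Col11a2 and Col4a5. Col8a1 and Col8a2 kept 11 and 8 reads there. Col4a1 and Col4a2, the collagen IV chains of vessels, were higher in that library, by 1.25-fold and 1.70-fold in the deposited scaling. Their differences of 0.29 and 0.71 log2 units became 0.12 and 0.54 when scaled by total reads. After each library was rescaled to an equal FPKM sum, they were 0.031 and 0.45.

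Of the 55 genes, 29 reached an FPKM of 1 in at least 1 library, 23 of them collagens and 6 laminins. Only 4 reached an FPKM of 10: Col9a3, Col4a2, Col6a1 and Lamb2. Summed over the 55 genes, FPKM came to 126.8, 144.6 and 104.7. The laminin part of these sums was 21.4, 31.2 and 23.5, and the collagen part 105.4, 113.4 and 81.2. The laminin sum was thus highest in PS19, and the collagen sum was lowest in PS19 Zbp1+/-. The most abundant member was Col9a3 in WT and PS19 and Col4a2 in PS19 Zbp1+/-.

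**Figure D1:**
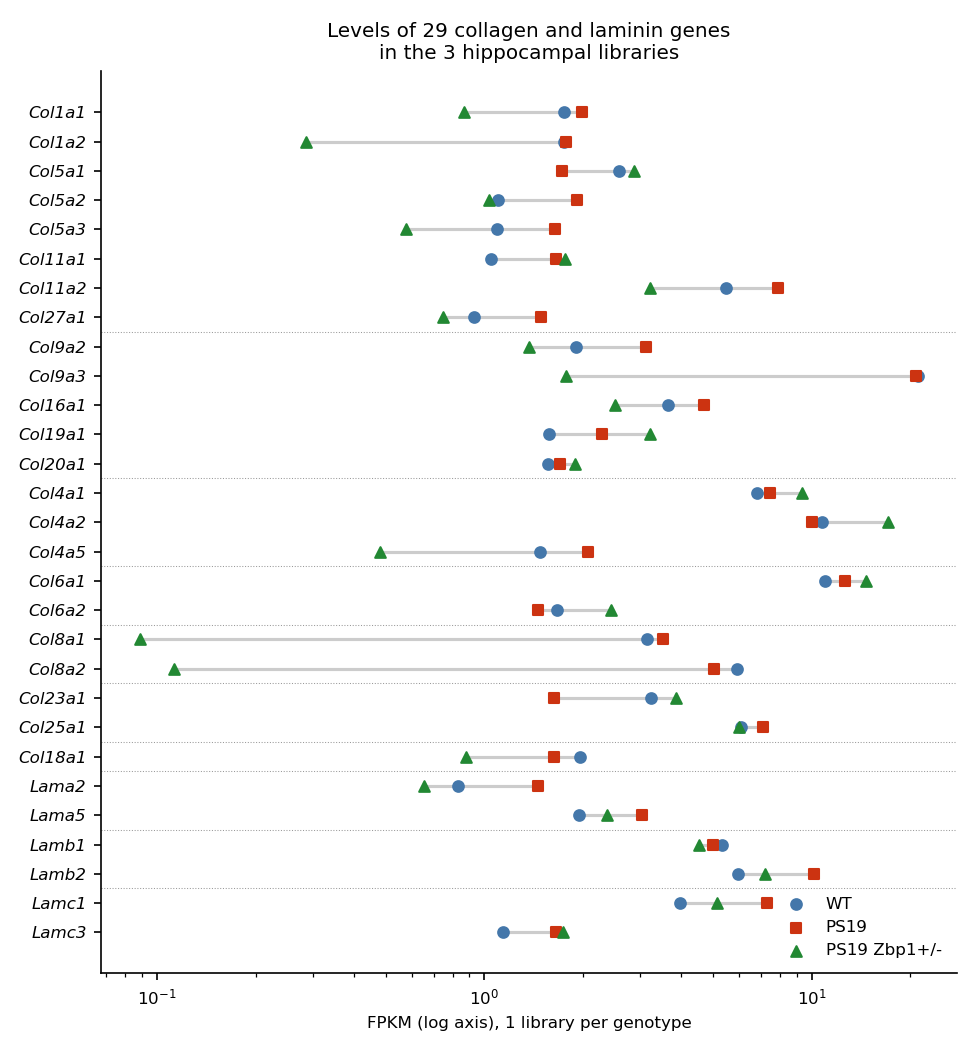
FPKM (log axis) of the 29 collagen and laminin genes that reached an FPKM of 1 in at least 1 library, with 1 point for each library and a grey line over their range; dotted lines separate the classes. The PS19 Zbp1+/- points of Col8a1 (0.0887), Col8a2 (0.113), Col1a2 (0.285) and Col9a3 (1.77) lie far left of the other 2 libraries, while those of Col4a1, Col4a2, Col6a1 and Col6a2 lie to the right.

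Between PS19 and WT, 0 of 29 members were at least 1 log2 unit higher in PS19, where 2.20% of the 12703 protein-coding genes that reached an FPKM of 1 in either library were. Likewise 0 of 29 were at least 1 log2 unit lower, where 0.291% of all genes were. The median difference of the members was 0.20, against -0.03 over all genes, and 21 of 29 lay above 0, against 46.3% of all genes. That median was 0.079 with the members below an FPKM of 1 included and 0.31 under TPM, the rescaling of each library to an equal FPKM sum. Counting at least 2-fold read ratios among genes with 10 or more reads over both libraries brought in the weak genes. By that count 1 of 54 members was higher (Col28a1; 7.20% of all genes) and 1 was lower (Col6a3; 2.36% of all genes).

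Between PS19 Zbp1+/- and PS19, 6 of 29 members, or 20.7%, were at least 1 log2 unit lower in PS19 Zbp1+/-, where 5.16% of 12772 genes were. At least 1 log2 unit higher were 0 of 29 members and 2.0% of all genes. The median of the members was -0.44, against 0.04 over all genes, and -0.21 with the weak members included. By 2-fold read ratios 21 of 54 members, or 38.9%, were lower (14.2% of all genes) and 1, Col23a1, was higher (4.78% of all genes). The members lower by either count were thus a larger share than among all genes, although chains of the same protein are not independent of each other.

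Between PS19 Zbp1+/- and WT, 4 of 27 members, or 14.8%, were at least 1 log2 unit lower (2.28% of 12436 genes) and 0 were higher (1.07%). Those were Col9a3, Col8a2, Col8a1 and Col1a2. The median of the members was -0.01, like that of all genes at 0.01. By read ratios 16 of 53 members, or 30.2%, were lower (8.82% of all genes) and 3, Col19a1, Col28a1 and Col6a4, were higher (4.29%). The 3 comparisons share their libraries and are not independent of each other. Scaling moved the medians: under TPM, the median of all genes between PS19 Zbp1+/- and PS19 was -0.21 in place of 0.04, and scaled by total reads it was -0.12. Each difference below is therefore relative to the deposited scaling.

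**Figure D2:**
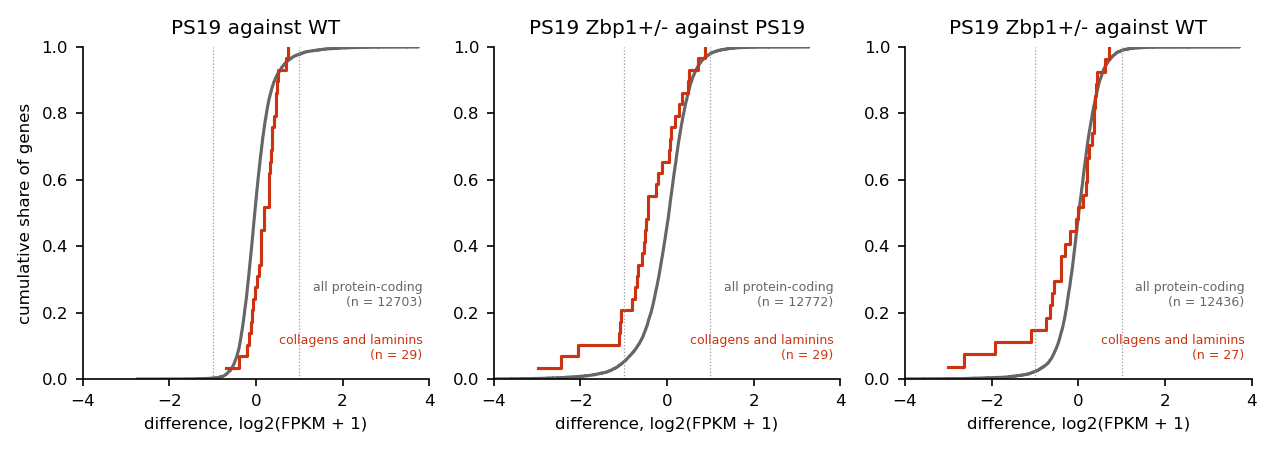
Cumulative share of genes (vertical axis) by difference of log2(FPKM + 1) (horizontal axis, cut off at 4 units either side) in each comparison, for all tested protein-coding genes in grey and the collagens and laminins in red; dotted lines mark 1 log2 unit. The red line leaves the grey one on the left side in both comparisons of PS19 Zbp1+/-, where 6 of 29 and 4 of 27 members lie past -1.

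Col8a1 and Col8a2 encode the chains of collagen VIII, a short-chain collagen that forms hexagonal networks in subendothelial and other specialised matrices. Their promoters are shown because these 2 genes had the lowest read ratios between PS19 Zbp1+/- and WT. The sequences are those of RefSeq (GRCm38.p6), up to the first annotated exon. Capitals mark the GC box, GGGCGG or its reverse complement CCGCCC.

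Col8a1, chr16:57754738-57754987, minus strand: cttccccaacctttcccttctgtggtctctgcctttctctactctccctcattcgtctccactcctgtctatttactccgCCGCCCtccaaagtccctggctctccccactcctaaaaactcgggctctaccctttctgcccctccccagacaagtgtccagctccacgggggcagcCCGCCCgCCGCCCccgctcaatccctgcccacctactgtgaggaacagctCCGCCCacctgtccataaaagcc
Col8a2, chr4:126286544-126286792, plus strand: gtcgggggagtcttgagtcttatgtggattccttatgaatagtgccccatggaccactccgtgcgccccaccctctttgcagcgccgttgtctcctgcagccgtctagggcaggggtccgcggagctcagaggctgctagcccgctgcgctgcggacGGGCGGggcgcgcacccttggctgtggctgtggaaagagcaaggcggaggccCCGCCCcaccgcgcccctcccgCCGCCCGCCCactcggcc

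Each window held 4 GC boxes. Neither strand of either window held the TATA box (letters TATAAA), the CCAAT box (its name gives its letters), the bicoid-type homeobox motif (letters TAATCC), the forkhead motif (letters TGTTTA) or the ETS motif (letters TTCCGG). A GC box was present in 32.7% of all 32851 RefSeq windows of 250 bases and in 24 of the 44 member windows, which covered 40 of the 55 genes. These matches describe the letters and show no binding.

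Col8a1 (chromosome 16 of GRCm38, 57624258 to 57754737, minus strand) stood at FPKM values of 3.14, 3.52 and 0.0887, from 424, 476 and 11 reads. The ratio of PS19 to WT, 1.12, had an interval that held 1 (0.981 to 1.28), and PS19 Zbp1+/- was 39.6-fold below PS19 (21.9 to 79.9). Col8a2 (chromosome 4, 126286793 to 126314330, plus strand) had FPKM values of 5.94, 5.03 and 0.113, from 460, 390 and 8 reads. PS19 Zbp1+/- was 44.6-fold below PS19 (22.4 to 104.1). The 2 chains of collagen VIII, which lie on different chromosomes, were thus low in the same library. The ratio of Col8a2 to Col8a1 in FPKM was 1.89, 1.43 and 1.27.

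Col9a3 encodes a chain of collagen IX, which coats cartilage-type fibrils. It lies on chromosome 2 (180597790 to 180622189, plus strand) and had FPKM values of 21.2, 20.9 and 1.77, from 1407, 1390 and 108 reads. The ratio of PS19 to WT was 0.986 (0.915 to 1.06), and PS19 Zbp1+/- was 11.8-fold below PS19 (9.68 to 14.5). Some 6.07% of its exon bases overlap exons of Tcfl5 on the other strand, but Tcfl5 had only 2, 6 and 13 reads. The other collagen IX chains were weaker throughout. Col9a2 had FPKM values of 1.91, 3.12 and 1.37 and Col9a1 had 6, 9 and 3 reads. FPKM of Col9a3 therefore stood 11.1-fold above that of Col9a2 in WT, 6.69-fold in PS19 and 1.29-fold in PS19 Zbp1+/-.

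The chains of interstitial collagens I and III, which fibroblasts make, were lower in PS19 Zbp1+/-. Not all genes of the interstitial matrix were, and Dcn, given below, was higher there. Col1a2 (chromosome 6, 4504814 to 4541544, plus strand) had FPKM values of 1.75, 1.78 and 0.285, and PS19 Zbp1+/- was 6.26-fold below PS19 (4.72 to 8.44). Col1a1 had FPKM values of 1.76, 1.99 and 0.866, with PS19 Zbp1+/- 2.30-fold below PS19 (1.79 to 2.97). Col1a1 and Col1a2 pair in the collagen I trimer, and their FPKM ratio was 1.005, 1.12 and 3.04. Col3a1 had 62, 64 and 2 reads, a read ratio of 0.0341 to PS19 (0.00405 to 0.128). All 3 genes showed WT and PS19 close together, with read ratios of 1.13 for Col1a1, 1.02 for Col1a2 and 1.03 for Col3a1.

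Collagens V and XI are minor fibrillar collagens that set fibril width. Col11a2 (chromosome 17, 34039437 to 34066685, plus strand) had FPKM values of 5.46, 7.91 and 3.21. PS19 was 1.45-fold above WT (1.31 to 1.60), and the ratio of PS19 Zbp1+/- to PS19 was 0.406 (0.358 to 0.460). Its partner Col11a1 did not follow, with FPKM values of 1.05, 1.66 and 1.77. Col5a2 had 1.10, 1.92 and 1.03, Col5a3 had 1.09, 1.64 and 0.575, and the related Col27a1 had 0.930, 1.49 and 0.747. These 3 genes were all highest in PS19. Col5a1 ran the other way, with FPKM values of 2.57, 1.73 and 2.87, and PS19 stood at 0.672 of WT in reads (0.571 to 0.791). Among the 8 tested fibrillar collagens, 7 had a positive difference between PS19 and WT, against 46.3% of all genes. Those of Col1a1 and Col1a2 were small, at 0.12 and 0.02 log2 units, and their read intervals held 1. Col5a1 was the exception under both other scalings too.

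Collagen IV, the network collagen of basement membranes, is encoded by 6 genes in 3 head-to-head pairs, and in PS19 Zbp1+/- the pairs differed in direction. Col4a1 and Col4a2 make the collagen IV of vessels. Their starts on chromosome 8 overlap by 22 bases, which are shown because these 2 genes were the collagen IV chains that were not low. Motifs are not marked in this stretch, which does hold the letters of the GC box.

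Col4a1 and Col4a2, chr8:11312805-11312826, plus strand: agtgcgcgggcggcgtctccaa

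Col4a1 had FPKM values of 6.81, 7.49 and 9.35, and Col4a2 had 10.8, 10.0 and 17.1. PS19 Zbp1+/- was above PS19 in both, with read ratios of 1.25 for Col4a1 (1.14 to 1.36) and 1.70 for Col4a2 (1.58 to 1.83). Both stayed above PS19 after either other scaling, Col4a1 by as little as 0.031 log2 units under TPM.

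The other 2 pairs were low in PS19 Zbp1+/-. Col4a3 and Col4a4, whose starts lie 72 bases apart on chromosome 1, encode chains best known from the kidney filter. Col4a3 had 73, 90 and 2 reads, and Col4a4 had 141, 126 and 16. Their read ratios to PS19 were 0.0243 (0.00290 to 0.0903) and 0.139 (0.0769 to 0.234). Both genes were thus close in WT and PS19 and low in the third library. Exons of an antisense gene, C430014B12Rik, overlap Col4a3, but it had 8 reads or fewer.

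Col4a5 and Col4a6 start 1309 bases apart on the X chromosome. Col4a5 (141475385 to 141689234, plus strand) had FPKM values of 1.48, 2.08 and 0.480, and Col4a6 had 52, 66 and 2 reads. PS19 Zbp1+/- was 4.33-fold below PS19 in Col4a5 (3.19 to 5.97), and the ratio of Col4a6 was 0.0331 (0.00393 to 0.124). Both are X-linked in libraries that differ in Xist and Y-linked reads, whose part was not tested. The FPKM of Col4a5 was 0.218, 0.277 and 0.0513 times that of Col4a1.

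**Figure D3:**
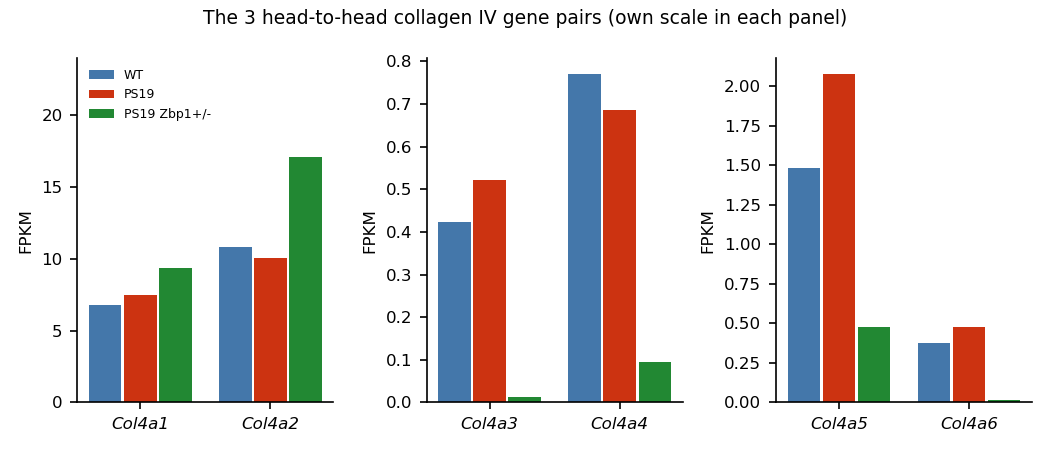
FPKM (bars from 0, each panel with its own scale) of the 3 head-to-head collagen IV gene pairs in the 3 libraries. Col4a1 and Col4a2 are tallest in PS19 Zbp1+/-, at 9.35 and 17.1, while the other 4 genes are shortest there, from 0.0127 for Col4a3 to 0.480 for Col4a5.

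Collagen VI forms beaded filaments next to basement membranes. Col6a1, its main chain here, had FPKM values of 11.0, 12.7 and 14.6, and Col6a2 had 1.66, 1.46 and 2.44. PS19 Zbp1+/- was above PS19 in both, with read ratios of 1.15 (1.05 to 1.26) and 1.67 (1.40 to 1.997). Scaled by total reads, however, the difference of Col6a1 was 0.015 log2 units, and under TPM it turned to -0.075. Col6a3 was highest in WT, with 172, 61 and 42 reads, and PS19 stood at 0.354 of WT (0.260 to 0.477). Col6a4 had 40, 55 and 92 reads and was 2.51-fold above WT in PS19 Zbp1+/- (1.71 to 3.73). The 6 chains thus ran in different directions, and Col6a5 had 46, 41 and 25 reads.

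Among the fibril-associated collagens other than collagen IX, Col16a1 was lower in PS19 Zbp1+/-, with FPKM values of 3.64, 4.69 and 2.51 and a ratio to PS19 of 0.535 (0.461 to 0.621). Col19a1, which a subset of hippocampal interneurons expresses, was highest in PS19 Zbp1+/-, with FPKM values of 1.58, 2.29 and 3.20, and stood 2.02-fold above WT there (1.69 to 2.43). Col20a1 had FPKM values of 1.57, 1.70 and 1.89, with intervals that held 1 in all 3 comparisons.

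The transmembrane collagens Col25a1 and Col23a1 stood near or above WT in PS19 Zbp1+/-. Col25a1, a neuronal collagen whose shed form is found in amyloid plaques, had FPKM values of 6.08, 7.12 and 6.01, with ratios of 1.17 for PS19 over WT (1.09 to 1.26) and 0.988 for PS19 Zbp1+/- over WT (0.914 to 1.07). Col23a1 was lowest in PS19, with FPKM values of 3.23, 1.63 and 3.86. PS19 stood at 0.505 of WT in reads (0.416 to 0.612), and PS19 Zbp1+/- at 2.36 times PS19 (1.95 to 2.86). Col18a1, a multiplexin of basement membranes that yields endostatin, had FPKM values of 1.96, 1.63 and 0.882 and was 1.85-fold below PS19 in PS19 Zbp1+/- (1.44 to 2.38).

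Laminins are trimers of an alpha, a beta and a gamma chain. The beta chain Lamb2 and the gamma chain Lamc1 were highest in PS19, whereas the beta chain Lamb1, given below, was not. Lamb2, the beta chain of mature vascular and synaptic basement membranes, had FPKM values of 5.95, 10.2 and 7.23. Lamc1, the gamma chain of most laminins, had 3.95, 7.30 and 5.15. PS19 exceeded WT 1.71-fold in Lamb2 (1.55 to 1.89) and 1.85-fold in Lamc1 (1.67 to 2.05). PS19 Zbp1+/- stood at 0.711 of PS19 in Lamb2 (0.645 to 0.782) and at 0.705 in Lamc1 (0.639 to 0.778). The 2 genes gave nearly the same ratios in both comparisons. For each gene PS19 Zbp1+/- lay between the other libraries, above WT by 0.24 log2 units in Lamb2 and 0.31 in Lamc1. Under either other scaling these differences from WT shrank to 0.11 and 0.18.

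The alpha chain sets a laminin's tissue and receptor. Lama5, an alpha chain of endothelial basement membrane, had FPKM values of 1.94, 3.04 and 2.37, and PS19 was 1.56-fold above WT (1.37 to 1.78). Lama2, the alpha chain of the parenchymal membrane at astrocyte endfeet, had 0.830, 1.46 and 0.654, with ratios of 1.76 (1.49 to 2.07) and 0.448 (0.372 to 0.537). Lama2 thus stood below WT in PS19 Zbp1+/-, whereas Lama5 stood above it in the deposited scaling, by 0.19 log2 units. That difference of Lama5 shrank to 0.088 when scaled by total reads and to 0.086 under TPM. Lama4, another endothelial alpha chain, had 75, 106 and 77 reads, and Lama1, found in pial membranes, had 104, 115 and 38.

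Lamb1, the beta chain of developing and many adult laminins, was not higher in PS19, with FPKM values of 5.31, 4.99 and 4.53. Lamc3, a less common gamma chain, was above WT in both PS19 libraries, with 1.14, 1.65 and 1.74. The FPKM ratio of Lamb2 to Lamb1 was 1.12, 2.04 and 1.60. Of the 6 tested laminins, 5 had a positive difference between PS19 and WT, against 46.3% of all genes, with a median of 0.44. The remaining one, Lamb1, turned positive under TPM. Markers of several glial cell types also summed highest in PS19. Astrocyte markers had a summed FPKM of 348.3, 1163 and 382.1, most of it Gfap in PS19, and of 249.9, 395.6 and 269.6 without Gfap. Microglia markers summed to 76.5, 191.8 and 90.3 and oligodendrocyte markers to 765.5, 1347 and 500.7. Endothelial markers summed to 135.1, 153.9 and 122.7. The part of these cell types in the laminin values was not tested.

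**Figure D4:**
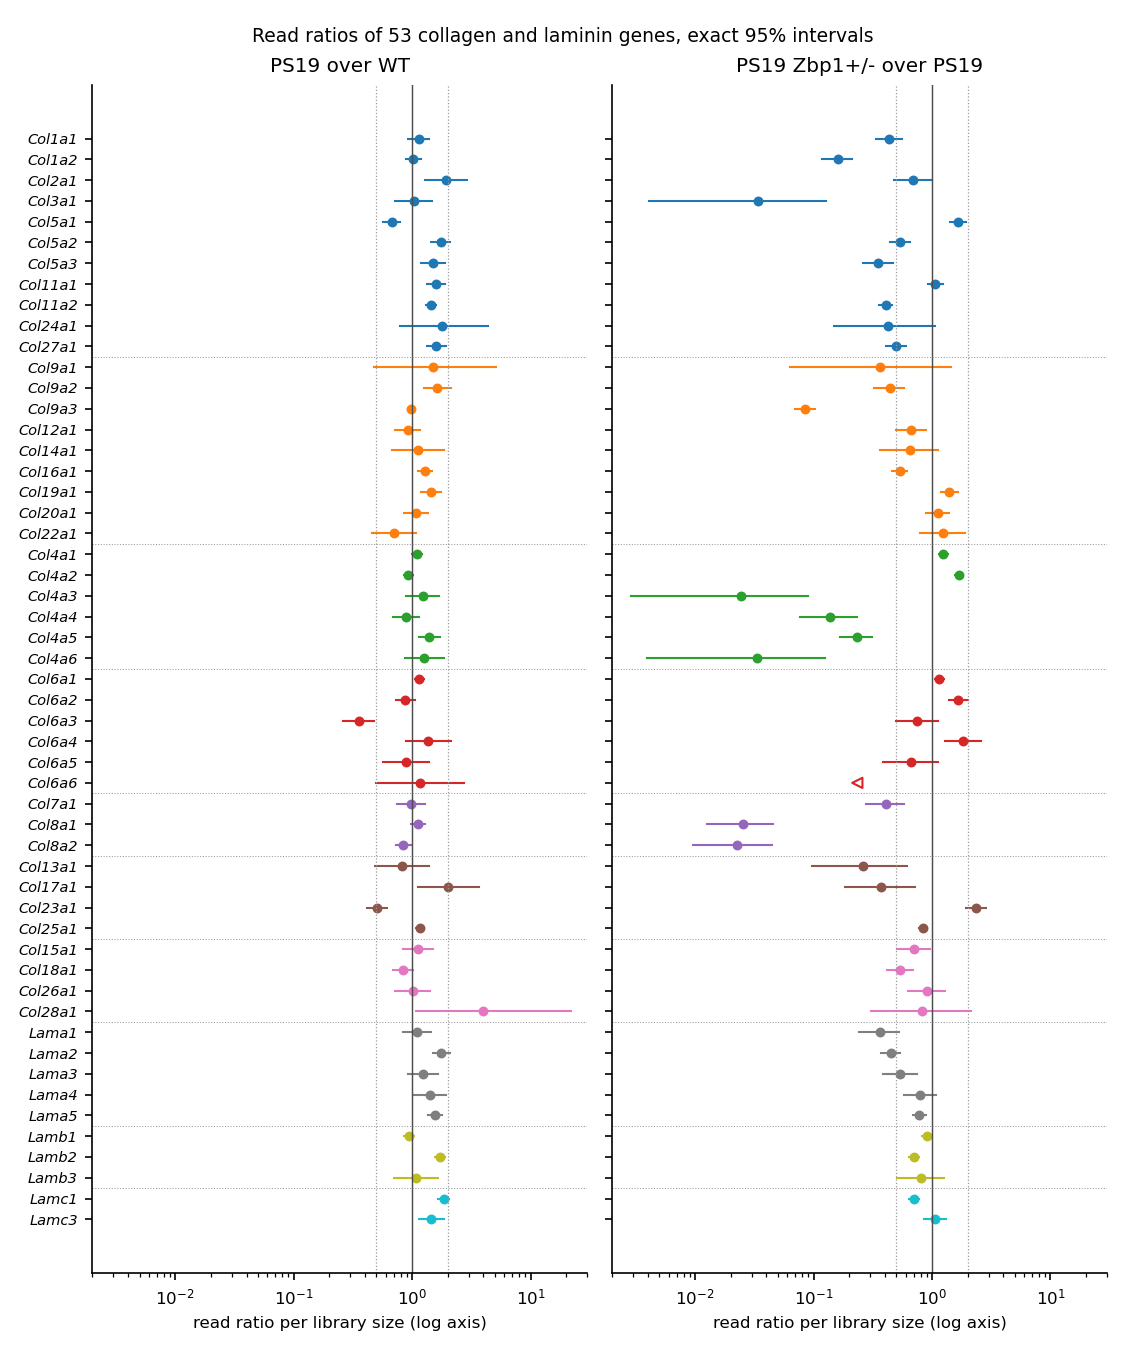
Read ratios per library size (log axis) with exact 95% intervals for 53 collagen and laminin genes, PS19 over WT on the left and PS19 Zbp1+/- over PS19 on the right, coloured by class; dotted vertical lines mark 2-fold and the open triangle an upper bound (Col6a6, 0 reads). On the left most ratios lie between the dotted lines; on the right Col8a2 (0.0224), Col4a3 (0.0243) and Col8a1 (0.0252) lie farthest left, and Col23a1 (2.36) farthest right.

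The other 26 members stayed below an FPKM of 1 in every library. Their medians were 0.366, 0.379 and 0.210, and the highest of them was Col15a1 at 0.938 in PS19. Several of these weak genes were also lower in PS19 Zbp1+/-: Col7a1, the anchoring fibril collagen, had 118, 116 and 43 reads and Col13a1 had 35, 29 and 7. Col6a6 had 12, 14 and 0 reads, which puts PS19 Zbp1+/- at least 4.27-fold lower than PS19, and Col10a1 had 5 reads or fewer. Other weak members hardly differed, such as Lamb3 with 45, 49 and 36 reads, Col26a1 with 73, 74 and 61 and Col22a1 with 58, 41 and 46. Col2a1, the cartilage fibril collagen, was highest in PS19, with 40, 77 and 49 reads. Col28a1 had 3, 12 and 9 reads, too few to separate PS19 from PS19 Zbp1+/- (ratio 0.819, 0.305 to 2.12).

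Genes that process collagen or bind it were examined from 5 lists. Of the 23 tested genes of collagen synthesis and processing, 0 passed 1 log2 unit between PS19 and WT. Over all genes, 2.20% were higher and 0.291% lower in PS19 than in WT. In PS19 Zbp1+/-, 4 of the 23 were lower than in PS19 (5.16% of all genes) and 0 were higher. Pcolce, which speeds cleavage of the procollagen C-propeptide, had FPKM values of 6.06, 5.14 and 0.859. Its relative Pcolce2 had 3.48, 4.48 and 0.847, and the other 2 were Serpinh1, the collagen chaperone Hsp47, with 10.2, 11.7 and 5.10, and the prolyl hydroxylase P4ha3 with 0.721, 2.34 and 0.423. Among the tested genes of that list P4ha3 and P3h2 had the widest differences between PS19 and WT, at 0.96 and 0.65 log2 units. Lox, which cross-links collagen, stayed below an FPKM of 1 and had 11, 72 and 0 reads. The list's median was 0.04 in that comparison and -0.14 between PS19 Zbp1+/- and PS19, against -0.03 and 0.04 over all genes.

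Of 8 tested basement membrane partners, 0 passed between PS19 and WT, and Nid2 was the 1 gene lower in PS19 Zbp1+/- when set against PS19. In so short a list, 1 gene cannot be told from the share over all genes, 5.16%. Nid2 and Nid1, the nidogens that join laminin to collagen IV, had FPKM values of 2.11, 2.40 and 0.562 and of 1.29, 1.58 and 0.428. The nidogens were thus low in the library where Col4a1 and Col4a2 were higher. Sparc, a collagen-binding glycoprotein, was just under the threshold between PS19 and WT, at 57.8, 115.6 and 69.1, and Smoc1 had 5.11, 6.83 and 5.42.

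Of 9 tested matrix receptors, 0 passed between PS19 and WT. Against PS19, 1 was lower in PS19 Zbp1+/- (5.16% of all genes), the laminin receptor chain Itga7, with FPKM values of 4.17, 5.68 and 1.78. Ddr1, a collagen receptor kinase, had 20.5, 37.3 and 18.9, and the laminin receptor chain Itga6 had 2.63, 5.29 and 2.36. Ddr2, the other collagen receptor kinase, had 1.86, 1.83 and 0.839. Of 8 tested proteases and inhibitors, 1, Timp1, was higher in PS19 than in WT (0.653 and 3.97), where 2.20% of all genes were. Timp1 rested on only 10, 61 and 13 reads. Timp1 at 0.925 and Timp3 at 5.28, against 11.7 in PS19, were the 2 genes lower in PS19 Zbp1+/- (5.16% of all genes). Timp2 ran the other way, with 89.1, 86.3 and 155.9, without passing the threshold. Of 10 tested interstitial matrix proteins, 1, Dcn, was lower in PS19 than in WT and higher in PS19 Zbp1+/- than in PS19, with FPKM values of 11.3, 4.70 and 20.7. Fn1, which encodes fibronectin, had 3.67, 6.16 and 6.86. Fmod, a collagen-binding proteoglycan, was 1 of 3 genes lower in PS19 Zbp1+/- when set against PS19 (5.16% of all genes), with 5.50, 6.84 and 0.554. The other 2 were Bgn, with 3.73, 5.93 and 1.82, and Ogn, with 4.74, 3.81 and 1.23, which is also a meningeal marker here. Of the 10 tested genes, 6 lay below 0 in that comparison and 4 above. All 12 genes of the list summed to an FPKM of 41.7, 39.7 and 45.2. Against WT, PS19 Zbp1+/- had 2 genes lower in the synthesis list, 1 in the protease list (Ctsk), 2 in the interstitial list (Fmod and Ogn), 0 in the other lists, and 0 higher in all 5. Over all genes, 2.28% were lower and 1.07% higher in that comparison.

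Meninges, vessels and choroid plexus can all contribute collagen and laminin RNA to a dissected hippocampus, so marker genes of each were read in the same libraries. The 14 choroid plexus epithelium markers summed to an FPKM of 3518, 2237 and 27.9, so that the last stood at 1.25% of PS19. All 14 were at least 1 log2 unit below PS19 (5.16% of all genes), and Slc4a5 was at 0 reads there. Ttr made up most of the first 2 sums, and without it they were 482.4, 395.0 and 20.8, which puts PS19 at 81.9% of WT and PS19 Zbp1+/- at 5.27% of PS19. With Ttr, PS19 stood at 63.6% of WT.

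The 14 meningeal fibroblast markers summed to 45.1, 38.2 and 10.4, or 27.2% of PS19. Of 9 tested, 6 were at least 1 log2 unit lower, against 5.16% of all genes. The 6 ependymal markers summed to 40.3, 34.8 and 9.33, with 4 of 6 lower, and the 5 blood markers to 19.0, 15.8 and 3.44, with 3 of 4 lower. Low collagens I, III, VIII and IX and low Col4a3 to Col4a6 thus came in the library with low markers of choroid plexus, meninges and ependyma. Markers of oligodendrocytes, microglia and astrocytes were low there too, at 37.2%, 47.1% and 32.8% of PS19 (astrocytes 68.1% without Gfap). Neuron, oligodendrocyte precursor and pericyte marker sums were not below PS19. The part of any of these tissues and cell types in the collagen values was not tested. With 1 library a genotype, genotype, sex and the tissue makeup of a library cannot be told apart.

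Vascular markers ran in both directions. The 14 endothelial markers stood at 79.75% of PS19 in PS19 Zbp1+/- (1 of 13 tested lower by 1 log2 unit, 10 of 13 below 0), the 9 pericyte markers at 100.7% (0 of 9) and the 5 smooth muscle markers at 84.6% (0 of 3). Among the endothelial markers, Slc2a1 had FPKM values of 37.8, 48.1 and 21.9 and Cldn5 had 22.4, 19.1 and 38.1. Without Slc2a1, the most abundant gene of the list, the endothelial sum stood at 95.3% of PS19. That sum still held Cldn5, which ran the other way, and the median difference of the tested endothelial markers was -0.22. Pericyte markers summed to 73.0, 85.4 and 86.0 and smooth muscle markers to 16.2, 15.85 and 13.4. Of the other lists, oligodendrocyte precursor markers stood at 111.7% of PS19 and neuron markers at 144.5%. Oligodendrocyte markers stood at 37.2%, microglia markers at 47.1% and astrocyte markers at 32.8%, or 68.1% without Gfap. Without their most abundant genes, oligodendrocyte precursor markers stood at 77.1% (without Olig1), pericyte markers at 92.55% (without Vtn) and smooth muscle markers at 108.3% (without Myl9). Of the 9 pericyte markers, 5 lay below 0 between PS19 Zbp1+/- and PS19 and 4 above.

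**Figure D5:**
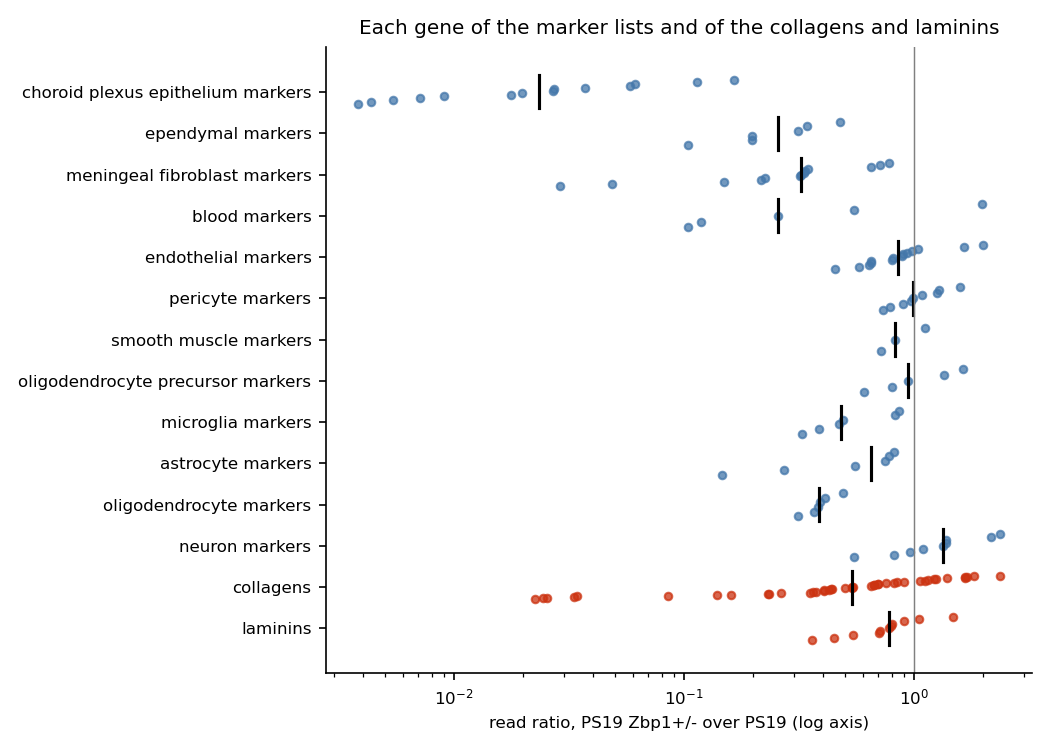
Read ratios of PS19 Zbp1+/- over PS19 (log axis) for each gene of 12 marker lists (blue) and of the collagens and laminins (red) with 10 or more reads over both libraries; a black bar marks each set's median, and genes with 0 reads in a library are placed at 3 reads. Choroid plexus genes lie lowest, endothelial and pericyte genes lie around 1, and the collagens span both ranges.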

How the data were processed

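RNA from 1 hippocampal library each of WT, PS19 and PS19 Zbp1+/- mice was extracted with TRIzol, per the labels' protocols. The submitters' processing notes name Trim Galore 0.6.5, STAR 2.5.3a and featureCounts 2.0.4, and the build mm39. The authors deposited FPKM values. Positions of all 55 members equal GENCODE M21 on GRCm38, so positions are given on that build. Strandedness is not given in the sources used here.

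FPKM times gene length was a whole multiple of 1 step, within 0.02 reads, in 100% of values, which gave whole reads and library sizes. Comparisons took the protein-coding genes that reached an FPKM of 1 in either library and were made on log2(FPKM + 1), and 1 log2 unit counted as higher or lower. A ratio against 0 reads used 3 reads. Every collagen or laminin gene reaching an FPKM of 1 was named; of the 5 matrix lists, the 2 tested genes with the widest difference in each comparison; of the marker lists, the sums; plus Zbp1, Xist and Ttr. The values of 1 weak member are not reported here. Serpinh1, Bgn, Lox, Ddx3y and single marker genes were named after their values were seen. The members and lists were chosen with earlier results of these data known. The procedure was tested on simulated data. Alternatives were other pseudocounts, filters, scalings and thresholds. Read ratios as a count, and marker sums without each list's most abundant gene, were added after the data had been seen. The tools were scipy 1.17.1, matplotlib 3.10.9, pandas 2.3.3 and numpy 2.4.6 under Python 3.11.15.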

Additional observations from a re-analysis of the deposited data

How the results depend on the processing

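Counts of members past the threshold depended on the pseudocount, filter and threshold. For lower members between PS19 Zbp1+/- and PS19 the count of 6 became 10 with a pseudocount of 0.1, 10 at 1.5-fold, 2 with a mean FPKM of at least 5 and 21 by read ratios. For lower members between PS19 Zbp1+/- and WT the count of 4 became 7 at 1.5-fold, 1 with a mean FPKM of at least 5 and 16 by read ratios. Counts of 0 higher members became 2 at 1.5-fold in each comparison, and by read ratios 1, 1 and 3 in PS19 against WT, PS19 Zbp1+/- against PS19 and PS19 Zbp1+/- against WT. Higher members between PS19 Zbp1+/- and PS19 numbered 1 with a pseudocount of 0.1 or 0.5. The 0 lower members between PS19 and WT became 1 at 1.5-fold and 1 by read ratios. TPM rescaling and total-read scaling left these counts within 1.5-fold. Without its most extreme gene, the median between PS19 Zbp1+/- and WT turned from -0.01 to 0.051, and the cause is that 1 gene fewer shifts a median near 0. Between PS19 Zbp1+/- and PS19, 4 members changed sign under TPM (Col11a1, Col20a1, Col6a1 and Lamc3), and between PS19 and WT 3 did (Col4a2, Col9a3 and Lamb1). No paired analysis was possible because each genotype had 1 library. Depth limited the weakest members: 3 reads on a gene of 5 kb correspond to an FPKM of 0.0348 to 0.0379.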
